A study of Mus musculus with 3 samples.

Results

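Gamma-delta T cells were examined in single-cell RNA libraries of immune cells from the mouse duodenum. The cells were chosen by raw UMI counts (distinct captured transcripts): at least 2 of Trdc, the constant segment of the delta chain, at least 1 of Cd3e, the CD3 chain carried by every T cell, 0 of Cd8b1, 0 of Cd4, and fewer than 2 in all of the killer receptor genes Klra6, Klra7 and Klre1. By this rule 14080 gamma-delta cells were found among 33284 cells that passed the quality filters, out of 40606 barcodes counted once. All mice were male C57B6/J animals whose duodenal muscle wall had been injected, and the duodenum was taken on day 30. PFF 1 came from mice given preformed fibrils of mouse recombinant alpha-synuclein, a protein that aggregates in Parkinson disease, and it contributed 5735 gamma-delta cells. The saline libraries, saline 1 and saline 2, contributed 2512 and 2027 cells of their own, and 3806 more gamma-delta cells stood in wells that both saline files hold. The tissue was digested with Accumax, part of the cells was sorted for CD45 and part was bound to CD11b beads, and the parts were pooled, so the share of any cell type reflects that enrichment. PFF 1 and saline 1 belong to batch 1 and saline 2 to batch 2 by the labels.

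Libraries did not stand on an equal footing. The saline files share 13889 cells with identical counts, in wells of 1509, 3648 and 8732 barcodes. These shared wells were left out of the tests, counted once and given as values of their own, and PFF 1 had 3 barcodes in common with each saline file. Gamma-delta cells held a median of 9468 UMIs in PFF 1, 3328 in saline 1, 10301 in saline 2 and 5835.5 in the shared wells. In PFF 1, saline 1 and saline 2, 20.1%, 3.04% and 22.7% of all barcodes exceeded 15% mitochondrial UMIs and were removed. How many mice stand behind a library is not given in the sources used here. The p-values for PFF measure the spread between the saline libraries, which are of different batches. For comparisons of cell groups they measure how the difference between groups varied over libraries. Both spreads may be technical. Levels are given as CPM, the UMIs of a gene per 1000000 UMIs summed over the cells of a group in a library. Intervals are exact 95% intervals and cover counting error only.

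T cells with a gamma-delta receptor sit between the epithelial cells of the small intestine together with CD8-bearing alpha-beta T cells, and many carry a CD8 alpha homodimer. They are known for granzymes, for the integrin alphaE beta7 that binds epithelial cadherin, and for receptors and adapters otherwise typical of natural killer cells. In the mouse gut many use the gamma segment Tcrg-V7, whose selection in the epithelium depends on butyrophilin-like proteins, and others use Tcrg-V1, which is joined to another constant segment.

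The variable segments matter here because reads from near-identical copies cannot be told apart with certainty. The last 90 bases of each annotated segment are shown, 5′ to 3′ on the strand of the gene, from the GENCODE annotation of build GRCm38, with capitals marking TACTACTGT, the codons of the tyrosine, tyrosine and cysteine before the joining region.
Tcrg-V7: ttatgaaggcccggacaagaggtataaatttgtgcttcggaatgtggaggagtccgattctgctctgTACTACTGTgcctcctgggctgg
Tcrg-V1: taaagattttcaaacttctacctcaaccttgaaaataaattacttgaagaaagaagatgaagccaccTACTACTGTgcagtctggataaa
Trgv2: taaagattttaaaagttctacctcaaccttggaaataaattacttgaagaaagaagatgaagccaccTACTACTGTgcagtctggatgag
Tcrg-V4: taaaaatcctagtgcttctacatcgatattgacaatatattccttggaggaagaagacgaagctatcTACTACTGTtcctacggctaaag
Tcrg-V1 and Trgv2 were 95.2% identical over 374 aligned bases, so their counts are uncertain relative to each other. Tcrg-V7 aligned to Tcrg-V1 over 45 bases, 64.4% of them identical. On chromosome 13 of GRCm38 the annotation places Tcrg-V7 at 19178024 to 19178492 and the constant segment Tcrg-C1 at 19214103 to 19217024, both on the plus strand. Tcrg-V1 lies at 19339989 to 19340454, next to the constant segment Tcrg-C4 at 19344558 to 19352756, also on the plus strand. Trdc stands on chromosome 14 at 54142851 to 54148868, upstream of the alpha constant segment Trac at 54220521 to 54224206.

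Receptor genes that the rule did not use bear on the label of the cells. Tcrg-C1 stood at 857, 961 and 1000.1 CPM in gamma-delta cells of PFF 1, saline 1 and saline 2. CD8 alpha-beta T cells, taken with 0 Trdc, Cd8a and Cd8b1 present and an alpha or beta constant UMI, had 129, 105 and 226 CPM of Tcrg-C1. CD8 alpha-alpha natural T cells, taken with 0 Trdc, 0 Cd8b1, Cd8a present and at least 2 alpha or beta constant UMIs, had 197, 462 and 208 CPM. That gate can also take in gamma-delta cells whose Trdc went uncaptured, and their number was not tested. Tcrg-C1 was thus highest in gamma-delta cells in all 3 libraries, and the groups did not overlap. Tcrg-C2 and Tcrg-C4 averaged 453 and 461 CPM over all wells in gamma-delta cells, against 460 and 414 CPM in CD8 alpha-alpha cells and 193 and 152 CPM in CD8 alpha-beta cells. The constant segments Tcrg-C1 and Tcrg-C2 are 96.2% identical over 909 aligned bases, so their counts too are uncertain. A UMI of Tcrg-C1, Tcrg-C2 or Tcrg-C4 was present in 99.5% of the gamma-delta cells.

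Transcripts of the alpha and beta constant segments were also present in the gamma-delta cells. Trac averaged 263 CPM in gamma-delta cells over all wells, against 571 CPM in CD8 alpha-alpha cells, 453 CPM in CD8 alpha-beta cells and 5.11 CPM in B cells (at least 2 Cd79a UMIs and 0 Cd3e). At least 1 Trac UMI was found in 77.9% of gamma-delta cells of PFF 1, 53.0% of saline 1 and 82.9% of saline 2. In cells thinned to 2000 UMIs the share over all wells was 36.6% in gamma-delta cells and 1.24% in B cells. Trbc1 averaged 457 CPM and Trbc2 609 CPM in gamma-delta cells, against 676 and 968 CPM in CD8 alpha-alpha cells and 628 and 1250 CPM in CD8 alpha-beta cells. Of the gamma-delta cells, 4304 or 30.6% had no Trac UMI, and each gate comparison was also made with those cells alone, an alternative added after the data were seen.

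**Figure D1:**
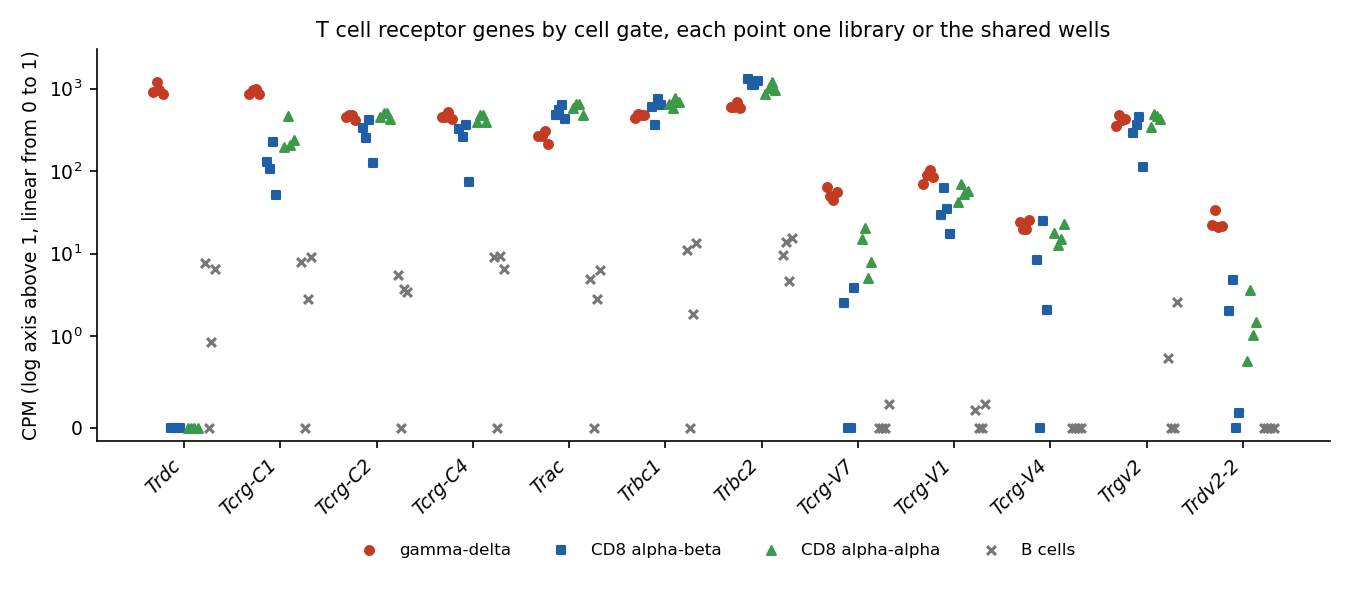
T cell receptor genes in gamma-delta, CD8 alpha-beta, CD8 alpha-alpha and B cells, as CPM on a log axis that is linear from 0 to 1; each point is PFF 1, saline 1, saline 2 or the shared wells. Tcrg-C1 of gamma-delta cells stands between 857 and 1000.1 CPM, above all points of the other gates, while Trac is present in gamma-delta cells below its level in both CD8 gates.

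The threshold of 2 Trdc UMIs lies on a slope. Among cells that met every other condition, 1626 had 2 Trdc UMIs and 1678 had 3, and their Tcrg-C1 levels were 760 and 796 CPM. Just outside it, 1735 cells with 1 Trdc UMI had 530 CPM of Tcrg-C1, and 6476 cells with none had 219 CPM. Trac stood at 248 CPM in cells with 2 Trdc UMIs, 281 CPM in cells with 1 and 492 CPM in cells with none. A gamma-delta cell held a median of 6 Trdc UMIs, with quartiles of 4 and 10 and a highest value of 83.

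Marker genes of intraepithelial T cells were also looked at, although location itself was not measured. Itgae, the alphaE chain of the epithelial integrin, was found in 99.0% of gamma-delta cells (92.1% after thinning, against 3.97% of thinned B cells) and stood at 1410 CPM in PFF 1, 1481 CPM in saline 1 and 1299 CPM in saline 2. Itgae did not set these cells apart, since cells that met the other conditions with 0 Trdc UMIs had 1215 CPM. Its partner Itgb7 had 318, 274 and 267 CPM in the same libraries. Cd8a was found in 95.03% of the cells, 84.5% after thinning against 5.70% of thinned B cells. The NK-type receptor genes Cd160 and Cd244a had 272 and 738 CPM in PFF 1, 215 and 702 CPM in saline 1 and 255 and 666 CPM in saline 2. Of 12 genes of circulating and naive T cells, 5 were under 2 CPM over all wells, among them Ccr7 at 0.20 CPM, S1pr1 at 1.20 CPM and Klf2 at 1.47 CPM. Others of the list were well above 0, with Cd27 at 84.3 CPM, Bach2 at 45.03 CPM, Tcf7 at 33.7 CPM and Il7r at 15.3 CPM. Of 12 genes of IL-17-producing gamma-delta cells in the files, 9 were under 1 CPM, and Il17a was at 0 in every well.

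Granzyme and chemokine genes stood among the most abundant transcripts, beside genes common to most cells. Leaving aside ribosomal protein and mitochondrial genes, Malat1, Gm42418 and Gzma led the ranking, with means of 25463, 21767 and 19880 CPM over the 3 libraries. Gzma, the granzyme A gene, had 17268 CPM in PFF 1, 17493 CPM in saline 1 and 24877 CPM in saline 2, and made up 1.88% of all gamma-delta UMIs. A Gzma UMI was found in 91.4% of thinned gamma-delta cells and also in 33.8% of thinned B cells. Ccl5, a chemokine that draws T cells, followed at 14149 CPM, and then Tmsb4x and Actb, genes of the actin skeleton, at 10127 and 5501 CPM. Gzmb, the granzyme B gene, held rank 7 at 3354 CPM, and the receptor gene Cd7 rank 13 at 2597 CPM. Perforin (Prf1) stood at 85.4, 79.3 and 93.9 CPM in PFF 1, saline 1 and saline 2, and interferon gamma (Ifng) at 5.09, 4.79 and 5.84 CPM.

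Gamma-delta cells made up 54.9% (53.9 to 55.8) of the Cd3e cells of PFF 1, 49.7% (48.3 to 51.1) of saline 1 and 61.6% (59.96 to 63.3) of saline 2. PFF 1 thus lay between the saline libraries, 0.81 percentage points under their mean, with a saline SD of 8.44 points. The threshold of 2 Trdc UMIs makes this share depend on depth. Thinned to 2000 UMIs, the shares were 32.0% in PFF 1, 38.4% in saline 1, 40.7% in saline 2 and 26.1% in the shared wells, with PFF 1 below both saline libraries. The shared wells ranged from 24.9% to 35.4%, on both sides of PFF 1. With 3 libraries no permutation of the labels can give a p under 1 in 3, and no test was made.

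Use of the gamma segments differed in its numbers between the libraries. Tcrg-V7 stood at 64.6 CPM in gamma-delta cells of PFF 1, 50.2 CPM in saline 1, 44.8 CPM in saline 2 and 55.6 CPM in the shared wells. Over all wells it averaged 57.8 CPM in gamma-delta cells, against 12 CPM in CD8 alpha-alpha cells and 3.20 CPM in CD8 alpha-beta cells. Cells with at least 2 UMIs of 1 segment and 0 of the other and of Tcrg-V4 were counted next. Of 1015 such cells in PFF 1, 549 carried Tcrg-V7, or 54.1% (51.0 to 57.2). In saline 1 these were 55 cells with Tcrg-V7 and 152 with Tcrg-V1, or 26.6% (20.7 to 33.1), and in saline 2 130 and 298, or 30.4% (26.0 to 35.0). The shared wells gave 33.8% (29.5 to 38.4) together, but 57.1% of 14 cells, 45.9% of 37 cells and 31.9% of 407 cells in the 3 wells apart. PFF 1 was above both saline libraries, while the intervals of the smaller shared wells, 28.9% to 82.3% and 29.5% to 63.1%, overlapped its own. In cells thinned to 2000 UMIs, PFF 1 came near saline 1 and stayed above saline 2, and the intervals overlapped. Of 76 such cells in PFF 1, 24 carried Tcrg-V7, or 31.6% (21.4 to 43.3). In saline 1 they were 21 of 75, or 28% (18.2 to 39.6), and in saline 2 they were 11 of 61, or 18.03% (9.36 to 29.98). In thinned cells, a Tcrg-V7 UMI was found in 11.7% of gamma-delta cells of PFF 1, 9.30% of saline 1 and 9.31% of saline 2, and a Tcrg-V1 UMI in 12.5%, 13.1% and 15.8%.

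The segments went with different constant segments. In the 1638 gamma-delta cells with at least 2 Tcrg-V7 UMIs, Tcrg-C1 had 1176 CPM and Tcrg-C4 410 CPM. In the 2197 cells with at least 2 Tcrg-V1 UMIs, Tcrg-C1 had 653 CPM and Tcrg-C4 648 CPM. Trgv2 was present at 2 or more UMIs in 77.5% of the Tcrg-V7 cells and 75.5% of the Tcrg-V1 cells, so it did not mark either set.

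**Figure D2:**
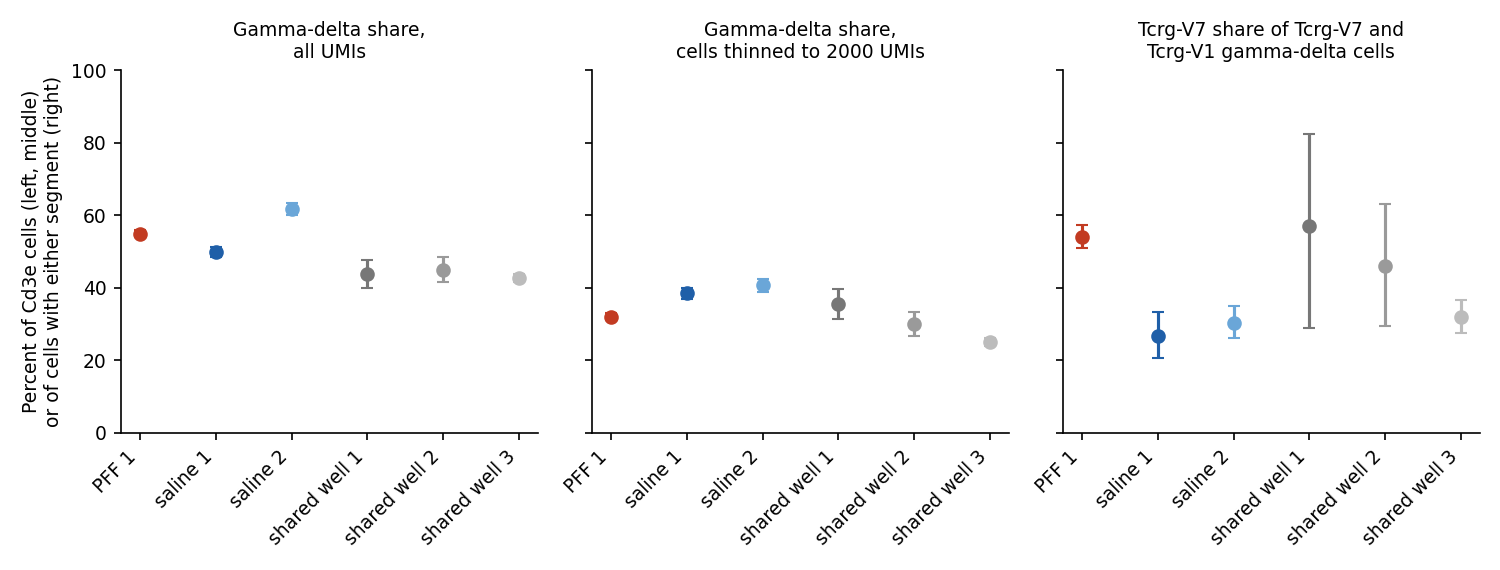
Gamma-delta cells as a percent of Cd3e cells with all UMIs (left) and thinned to 2000 UMIs (middle), and Tcrg-V7 cells as a percent of Tcrg-V7 and Tcrg-V1 cells (right), in PFF 1, saline 1, saline 2 and the 3 shared wells; bars are exact 95% intervals for counting error only. PFF 1 lies between the saline libraries on the left, and at 54.1% against 26.6% and 30.4% on the right, where thinned cells gave 31.6% against 28% and 18.03%.

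Compared with CD8 alpha-beta T cells of the same libraries, gamma-delta cells had lower levels of Cd5, Cd28 and Cd2 and of most genes of circulating and naive T cells, and higher levels of epithelial transcripts. Of 11629 genes tested, 128 were higher and 162 lower in gamma-delta cells, 2.49% of all (1.1% higher and 1.39% lower; edgeR quasi-likelihood test with the library as a block, adjusted p under 0.05). Without PFF 1 the count was 139 and without saline 2 it was 831. Genes of the gates and of the receptor were left out of this and all other tests. The alpha-beta gate was small, with 209 cells in PFF 1, 66 in saline 1 and 46 in saline 2. In the shared wells, which took no part in the fit, 119 of the 128 and 153 of the 162 had the same direction. Of 41 called genes given for this comparison, 41 passed without saline 2 and 33 without saline 1, the others being Fcer1g, Gzmb, Ikzf2, Il2ra, Irf8, Klrd1, Pim1 and Tyrobp. Of the 39 that could be fitted without PFF 1, 25 passed, and Btla, Gzmb, Icos, Ikzf2, Il18r1, Il2ra, Irf8, Isg15, Kit, Klrd1, Lag3, Pim1, Rtp4 and Tyrobp did not.

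Receptor genes that tune signalling of the alpha-beta receptor were among those lower. Cd5, a negative regulator of receptor signalling, had 0.34, 0.21 and 0 CPM in gamma-delta cells of PFF 1, saline 1 and saline 2, against 66.7, 66.8 and 16.7 CPM in CD8 alpha-beta cells. The groups did not overlap, and the shared wells gave 1.18 against 107 CPM (log2 fold change -7.96, SE 0.53, edgeR adjusted p 1.14e-09). Cd28, the main costimulatory receptor, had 0.29, 0.11 and 0 CPM in gamma-delta cells and 29.4, 43.0 and 3.34 CPM in CD8 alpha-beta cells (log2 fold change -7.12, SE 0.72). The adhesion receptor gene Cd2, the scavenger receptor gene Cd6 and Ubash3a, a dampener of receptor signalling, were lower by log2 fold changes of -5.11, -4.46 and -3.17. Among 21 tested genes of T cell receptor signalling, 7 were lower and 2 were higher, Lyn and Ptpn6, a kinase and a phosphatase that act on inhibitory receptors, and the median of the list was -0.19. Of 19 inhibitory and costimulatory receptor genes tested 3 were lower, Cd28, Icos (-3.96) and Btla (-2.79), and 3 were higher, among them Lag3, an inhibitory receptor, by 0.76.

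Genes of circulating and naive T cells formed the list with the most members lower. Of 12 genes fixed, 10 were tested, 9 were lower and none was higher, with a median log2 fold change of -3.38 beside 0.02 over all genes. Il7r, the receptor for the survival cytokine IL-7, had 18.2, 23.3 and 10.5 CPM in gamma-delta cells of PFF 1, saline 1 and saline 2, against 197, 329 and 75.2 CPM in CD8 alpha-beta cells (-3.41, SE 0.18, edgeR adjusted p 3.51e-11). Lef1, a factor of naive T cells, had 10.4, 10.0 and 7.93 CPM against 190, 81.2 and 107 CPM (-3.84, SE 0.22). Both genes were separated between the gates in each library. S1pr1, which lets T cells leave lymph nodes, was lower by -4.47. With cells thinned to 2000 UMIs 9 of the list were tested and 7 were lower, and with gamma-delta cells free of Trac UMIs 9 of 10 were.

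Homing receptors and receptors and adapters of the natural killer type differed in both directions. Of 20 homing and retention genes tested, 6 were lower and 2 higher, and without saline 1 those lower were 3 of 21. The integrin genes Itgal and Itga4, which carry T cells across blood vessel walls, had log2 fold changes of -3.09 and -1.94, and Gpr174, a lysophosphatidylserine receptor gene, one of -1.95. Fcer1g, an ITAM adapter of Fc and natural killer receptors, had 1228, 1109 and 1582 CPM in gamma-delta cells and 555, 339 and 1074 CPM in CD8 alpha-beta cells (1.07, SE 0.18, edgeR adjusted p 0.000923). The ranges of Fcer1g over the libraries came close, but gamma-delta cells were above CD8 alpha-beta cells in each library and in the shared wells, with 1269 against 163 CPM. Tyrobp, the adapter also known as DAP12, was higher by 0.79 and Klrd1, the CD94 chain of NKG2 receptors, by 0.81. Of 13 NK-type receptors tested 2 were higher, among them Klrd1, and 1 was lower, Cd226, an activating adhesion receptor gene, with 249, 256 and 152 CPM in gamma-delta cells against 599.98, 797 and 246 CPM in CD8 alpha-beta cells (-1.22, SE 0.16). Gzmb was the only one of 16 tested granule genes that passed, with 2747, 3062 and 4255 CPM in gamma-delta cells against 1478, 1112 and 3309 CPM in CD8 alpha-beta cells (0.88, SE 0.20). Without saline 1 the log2 fold changes of Fcer1g, Tyrobp, Klrd1 and Gzmb lay between 0.53 and 0.85.

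Among other regulators, the transcription factor genes Ikzf2 (Helios) and Irf8 were higher by 0.79 and 0.68, and Bcl11b and Rora lower by -0.97 and -1.30, 4 of 22 factors tested. The kinase gene Pim1 was higher by 0.66, and Kit, a receptor for stem cell factor, by 0.87. The cytokine gene Ltb (lymphotoxin beta) was lower by -1.16, and the cytokine receptor genes Il18r1 and Il2ra by -3.50 and -2.71. Of 20 interferon response genes 3 were lower, Ifi27l2a, Isg15 and Rtp4, 19 of the 20 had values below 0, and the median was -0.51. No gene of oxidative phosphorylation (27 tested), glycolysis (16) or the cell cycle (20) passed.

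Outside the lists Gm43434 had the largest increase, followed by Clca1, a goblet cell gene described with the epithelial transcripts, and Zmat4. Gm43434 had 141, 85.4 and 169 CPM in gamma-delta cells of PFF 1, saline 1 and saline 2, against 2.49, 0 and 0 CPM in CD8 alpha-beta cells (log2 fold change 6.31, SE 0.35, edgeR adjusted p 5.35e-11). Zmat4, a zinc finger gene, had 342, 342 and 361 CPM against 12.4, 81.2 and 21.7 CPM (3.90, SE 0.29). Gm2682 went the other way, with 4.96, 2.87 and 1.05 CPM in gamma-delta cells and 282, 263 and 167 CPM in CD8 alpha-beta cells (-6.36, SE 0.22), and Ms4a4b, a T cell membrane gene, was lower by -4.13. The gates did not overlap in Gm43434, Zmat4, Gm2682 or Ms4a4b, which were picked by the size of their change.

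Transcripts of epithelial cells moved with this comparison. Of 12 enterocyte markers, all were tested and 10 were higher, with Apoa4, an apolipoprotein gene of absorptive cells, at 104, 16.2 and 276 CPM in gamma-delta cells and 5.97, 4.77 and 48.4 CPM in CD8 alpha-beta cells. The enterocyte markers summed to 339, 247 and 1524 CPM in gamma-delta cells of PFF 1, saline 1 and saline 2, and to 388, 4444 and 137 CPM in the shared wells. In CD8 alpha-beta cells they summed to 104, 90.7 and 311 CPM. With cells thinned to 2000 UMIs 6 of these markers were tested and 0 passed, with a median of 0.28. The thinned alpha-beta gate held 97, 45 and 9 cells, so depth and membership cannot be told apart in thinned cells. Without saline 2 the higher markers were 6 of 10. Goblet cell genes moved too: of 5 goblet, Paneth and enteroendocrine markers tested 3 were higher, Muc2 by 3.15, Fcgbp by 3.11 and Tff3 by 2.89, and outside the lists Clca1 by 4.6 and Zg16 by 3.52. Muc2, Fcgbp and Clca1 did not keep this direction in the shared wells, Zg16 did not in saline 1, and in thinned cells Fcgbp and Tff3 turned to -0.20 and -0.0069. The part of epithelial transcripts in the other genes called was not tested.

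CD8 alpha-alpha natural T cells are the other unconventional T cells of the epithelium, and gamma-delta cells had higher Themis, Cd247 and Ccr9 and lower Klrb1c and Zbtb16 than these. Of 13320 genes, 134 were higher and 156 lower in gamma-delta cells, 2.18% of all (1.01% higher and 1.17% lower; edgeR as above). The alpha-alpha gate held 1690, 1226 and 571 cells in PFF 1, saline 1 and saline 2. It may include gamma-delta cells whose Trdc went uncaptured, and their part in this comparison was not tested. The direction in the shared wells was the same for 123 of the 134 and 144 of the 156. Without saline 1 the count was 29, without saline 2 it was 528 and without PFF 1 it was 725. Of 24 called genes given for this comparison, 11 passed without saline 1, and Bcl2, Grap2, Gzmk, Havcr2, Hba-a1, Hcst, Il2rb, Itga4, Lat, Lilrb4a, Scin, Tyrobp and Zmat4 did not.

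Proximal receptor signalling differed in both directions. Cd247, the CD3 zeta chain, had 469, 481 and 379 CPM in gamma-delta cells of PFF 1, saline 1 and saline 2, against 243, 268 and 206 CPM in CD8 alpha-alpha cells, with no overlap (log2 fold change 0.88, SE 0.04, edgeR adjusted p 0.000289). Themis, a signalling protein of thymic selection, had 389, 462 and 247 CPM against 108, 126 and 64.4 CPM, also without overlap (1.87, SE 0.04, adjusted p 1.24e-05). The adapter genes Hcst (DAP10), Lat and Grap2 were higher by 0.45, 0.57 and 0.38. Tyrobp, which was higher than in CD8 alpha-beta cells, was lower than in CD8 alpha-alpha cells, with 989, 901 and 1463 CPM in gamma-delta cells and 1272, 1352 and 1810 CPM in CD8 alpha-alpha cells (-0.43, SE 0.06, adjusted p 0.0161). Of 20 tested signalling genes 3 were higher and 3 lower, and the median was 0.00; without saline 1 these were 1 and 0 of 22.

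Homing genes were higher where they passed. Ccr9, the receptor for the small-intestinal chemokine CCL25, had 257, 302 and 193 CPM in gamma-delta cells and 155, 190 and 114 CPM in CD8 alpha-alpha cells (0.70, SE 0.04, edgeR adjusted p 0.00086), and gamma-delta cells were higher in each library. Itga4 was higher by 0.86. Of 21 homing genes 3 were higher, and 0 were lower; without saline 1 the number higher was 1, and without PFF 1 it was 7, with 1 lower. Itga4 did not hold its direction in the shared wells, with 62.6 CPM in gamma-delta cells and 65.1 CPM in CD8 alpha-alpha cells.

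NK-type receptor genes were lower in 3 of 16 and higher in 1. Klrb1c (NK1.1) had 19.8, 14.7 and 28.0 CPM in gamma-delta cells, against 47.6, 36.4 and 58.4 CPM in CD8 alpha-alpha cells (-1.22, SE 0.07, edgeR adjusted p 0.00086), and Klrb1a was lower by -0.70. Zbtb16, the PLZF factor of innate-like T cells, had 19.0, 12.2 and 22.6 CPM in gamma-delta cells and 49.7, 28.6 and 51.5 CPM in CD8 alpha-alpha cells (-1.30, SE 0.07). In each library both genes were lower in gamma-delta cells. Zeb2, a factor of cytotoxic effector cells, was higher, with 41.6, 46.7 and 25.1 CPM against 14.8, 11 and 7.28 CPM (1.71, SE 0.11), and so was Gzmk, the granzyme K gene, by 1.26. Of 25 genes of common gamma chain cytokine signalling 3 passed: Il2rb, the shared beta chain, was lower by -0.36, Bcl2, a survival gene, by -0.27, and Cish, an inhibitor of cytokine signalling, was higher by 0.85. The inhibitory receptor genes Havcr2 (TIM-3) and Lilrb4a were higher by 2.16 and 1.12, while 5 of the 19 tested were lower.

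Outside the lists, Scin, which encodes the actin-severing protein scinderin, had 136, 133 and 106 CPM in gamma-delta cells and 33.8, 17 and 13.5 CPM in CD8 alpha-alpha cells (2.5, SE 0.18, edgeR adjusted p 0.00253). Gm43434 was higher by 5.03 and Zmat4 by 1.85, with 3.11, 7.10 and 3.73 CPM of Gm43434 and 132, 67.3 and 89.8 CPM of Zmat4 in CD8 alpha-alpha cells. Klra5, a Ly49 receptor gene outside the gate, was lower, with 153, 218 and 213 CPM against 430, 567 and 614 CPM (-1.48, SE 0.04), and so was Plce1, a phospholipase gene, by -1.95. None of these 5 genes, picked by the size of their change, overlapped between the gates. Hba-a1, a hemoglobin gene of red blood cells, was among those called lower (-5.23, SE 0.71), at 0.11, 0.32 and 31.3 CPM in gamma-delta cells and 90.9, 0.23 and 573 CPM in CD8 alpha-alpha cells. Enterocyte markers summed to 339, 247 and 1524 CPM in gamma-delta cells and 657, 322 and 702 CPM in CD8 alpha-alpha cells, and 0 of 12 passed.

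**Figure D3:**
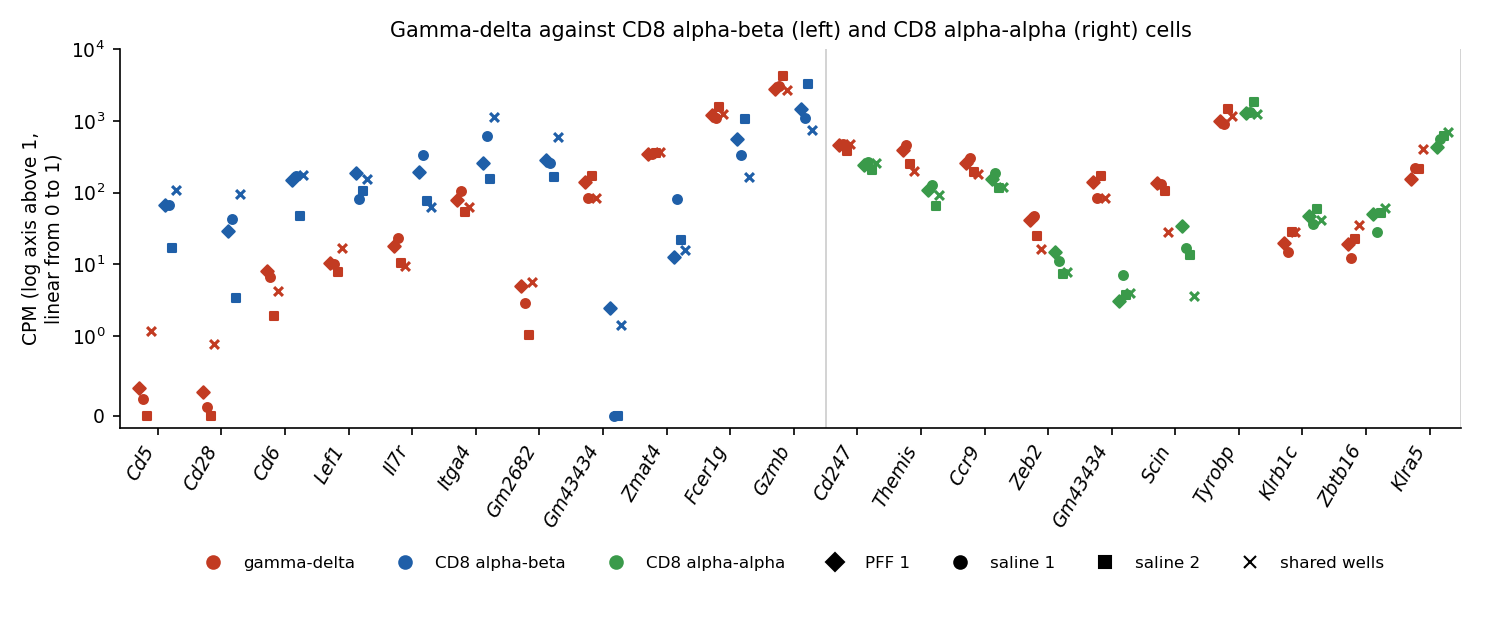
Named genes in gamma-delta cells beside CD8 alpha-beta cells (left) and beside CD8 alpha-alpha cells (right), as CPM on a log axis that is linear from 0 to 1; marker shapes are PFF 1, saline 1, saline 2 and the shared wells. Cd5, Cd28, Lef1 and Il7r lie lower in gamma-delta than in CD8 alpha-beta cells by more than the spread of the libraries, whereas Cd247, Themis and Ccr9 lie above CD8 alpha-alpha cells.

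Gamma-delta cells also varied among themselves. Cells without a Cd8a UMI numbered 223 in PFF 1, 211 in saline 1 and 39 in saline 2, or 3.89%, 8.40% and 1.92% of the gamma-delta cells, and 227 or 5.96% in the shared wells. Cd8a-bearing cells were deeper, with a median of 7568 UMIs over all wells against 4704 in Cd8a-free cells. At 2000 UMIs per cell the Cd8a-free share was 16.4% in PFF 1, 14.8% in saline 1 and 11.2% in saline 2. Of 11641 genes tested, 152 were higher and 76 lower in Cd8a-bearing cells, 1.96% of all (1.31% higher and 0.653% lower; edgeR). All 152 and all 76 had the same direction in each of the 3 libraries in which they were called. In the shared wells, which took no part in the fit, 147 and 76 did. Without PFF 1 the count was 24, and without saline 1 or saline 2 it was 435 or 787. Of 34 called genes given for this comparison, 3 passed without PFF 1, namely Fcgbp, Ms4a4b and Tyrobp, and 34 passed without either saline library.

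Granule and cytokine receptor genes differed in both directions. Of 16 granule genes tested 2 were higher in Cd8a-bearing cells, Gzma and Gzmb, and Gzmk was lower. Of 22 genes of common gamma chain cytokine signalling 3 were higher, among them Il2rb and Bcl2, and Il2ra was lower by -2.98. Il2ra had 36, 6 and 3 UMIs in Cd8a-free cells of PFF 1, saline 1 and saline 2. Tyrobp had 1013, 942 and 1479 CPM in Cd8a-bearing cells of PFF 1, saline 1 and saline 2, against 216, 292 and 566 CPM in Cd8a-free cells (log2 fold change 1.76, SE 0.18, edgeR adjusted p 0.00275). Il2rb had 552, 606 and 666 CPM against 182, 270 and 122 CPM (1.68, SE 0.20), and Gzmb 2795, 3144 and 4307 CPM against 1184, 1857 and 1334 CPM (1.21, SE 0.17). None of these 3 genes, picked as called members of their lists, overlapped between the sets. Fcer1g, Bcl2, Gzma and Cd7 were higher by 0.74, 0.89, 0.82 and 0.95, and the chemokine gene Ccl4 by 1.26. Of 19 inhibitory and costimulatory receptors tested 6 were higher, among them Tnfrsf9 (4-1BB) by 1.87, Lilrb4a by 2.08 and Entpd1 (CD39) by 1.14. Outside the lists Tmprss6, a membrane protease gene, was higher by 3.51.

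Cd8a-free cells carried more of the genes of naive and recirculating T cells. Satb1, a chromatin organiser, had 8.69, 6.37 and 3.32 CPM in Cd8a-bearing cells of PFF 1, saline 1 and saline 2, against 69.7, 36.7 and 37.3 CPM in Cd8a-free cells (-3.0, SE 0.28, edgeR adjusted p 0.0021). Tcf7, which encodes TCF1, had 28.5, 24.2 and 14.4 CPM against 151, 55.0 and 64.6 CPM (-2.0, SE 0.24). Lef1 and Il7r were lower by -2.66 and -2.01, so that 4 of the 7 tested genes of the list were lower, with a median of -2.0. With cells thinned to 2000 UMIs 5 of the 7 were lower, and with cells free of Trac UMIs 4 of 7. Without PFF 1 none passed, with a median of -1.68.

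Other genes lower in Cd8a-bearing cells were Ccr9, with 247, 280 and 189 CPM against 592, 623 and 425 CPM in Cd8a-free cells (-1.21, SE 0.12, edgeR adjusted p 0.00272), Itga4 (-1.33), Itgal (-1.96), Themis (-0.86), Cd6 (-2.49) and Gzmk (-0.91). The inhibitory receptor gene Pdcd1 (PD-1) was lower by -4.03, on 33, 2 and 2 UMIs in Cd8a-free cells of PFF 1, saline 1 and saline 2. The factor gene Id3 was lower by -1.99, on 151, 7 and 19 UMIs in Cd8a-free cells of the same libraries. Outside the lists Ms4a4b had 20.7, 20.6 and 9.66 CPM in Cd8a-bearing cells and 193, 143 and 122 CPM in Cd8a-free cells (-3.22, SE 0.19), Gm2682 was lower by -5.18 and Tgm2, a transglutaminase gene, by -3.45. The sets were apart in each library for these 3 genes.

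Cell cycle genes were called higher in Cd8a-bearing cells, but not in thinned cells. Of 20 tested, 6 were higher and all 20 were above 0, with a median of 1.38. Mki67, a proliferation marker, had 66.6, 50.02 and 44.9 CPM in Cd8a-bearing cells against 2.70, 8.33 and 9.94 CPM in Cd8a-free cells (3.45, SE 0.40). Hist1h1b, a histone gene of S phase, was at 0 in all Cd8a-free cells of the tested libraries, and at least 36.1-fold higher in Cd8a-bearing cells taking 3 counts over the Cd8a-free cells as the floor. In cells thinned to 2000 UMIs, Mki67, Hist1h1b and Stmn1, a microtubule gene of dividing cells, turned to -0.028, -0.68 and -0.24. There 16 of the list were tested and 2 were lower, with a median of -0.26. Thinning also changed the sets, since the Cd8a-free cells then numbered 490, 254 and 137 in PFF 1, saline 1 and saline 2, so depth and membership cannot be told apart here. In cells free of Trac UMIs 0 of 13 passed, and without PFF 1 1 of 20 did. The goblet cell markers Fcgbp, Muc2 and Tff3 were higher too, and Fcgbp, Muc2 and Tff3 turned to -0.79, -1.56 and -0.23 where 1 Trdc UMI was enough. The part of depth and of epithelial transcripts in the remaining genes was not tested.

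A comparison of Tcrg-V7 with Tcrg-V1 cells was added after the data were seen. It rests on 549, 55 and 130 Tcrg-V7 cells of PFF 1, saline 1 and saline 2, against 466, 152 and 298 Tcrg-V1 cells. Over all wells their medians were 9938 and 8568 UMIs. Of 10500 genes, 59 were higher and 59 lower in Tcrg-V7 cells, 1.12% of all (0.562% each way; edgeR). The direction in the shared wells was the same for 57 of those higher and 39 of those lower, and without saline 2 the count was 73. Of 16 called genes given for this comparison, Ccr9, Lef1, Mki67, Ms4a4b and Satb1 did not pass without PFF 1, Fabp1, Itga1, Mki67 and Top2a without saline 1, and Fabp1, Ikzf2, Itga1, Mki67 and Top2a without saline 2. With cells thinned to 2000 UMIs only 24, 21 and 11 Tcrg-V7 cells were left and 0 genes passed, with 119 at an unadjusted p under 0.05, and with cells free of Trac UMIs 4 passed.

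Tcrg-V7 cells had lower levels of several genes of naive and recirculating T cells. Of the circulating and naive list, 7 were tested and 4 were lower, with a median of -1.66, and without PFF 1 those lower were 2. Tcf7 had 15.6, 41.9 and 7.03 CPM in Tcrg-V7 cells of PFF 1, saline 1 and saline 2, against 54.8, 41.9 and 30.1 CPM in Tcrg-V1 cells (log2 fold change -1.66, SE 0.24, edgeR adjusted p 0.00125). In saline 1 the level of Tcf7 was the same in both sets. Il7r had 10.1, 12.6 and 3.20 CPM against 31.2, 45 and 13.0 CPM (-1.71, SE 0.25), Satb1 was lower by -2.43 and Lef1 by -2.07. Themis was lower by -0.52 and Ccr9 by -0.42, and Themis turned to 0.14 in thinned cells. Ms4a4b was lower by -2.25 and Maml3, a coactivator of Notch signalling, by -2.63. Cell cycle genes were lower in 5 of 20, with a median of -0.45, and in 1 of 20 without saline 2. In the shared wells Mki67 and Top2a went the other way, with 124 and 134 CPM in Tcrg-V7 cells against 41.5 and 66.8 CPM in Tcrg-V1 cells.

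Among genes higher in Tcrg-V7 cells, Gm156 had 149, 277 and 302 CPM in Tcrg-V7 cells against 51.9, 45 and 161 CPM in Tcrg-V1 cells (1.36, SE 0.15, edgeR adjusted p 0.000101). Bcl2l15, a BCL2 family gene, had 87.4, 67.1 and 109 CPM against 39.7, 35.7 and 53.5 CPM (1.08, SE 0.12), with no overlap. Nr4a2, an immediate early gene, was higher by 0.71, Ikzf2 by 0.31 and the collagen-binding integrin chain Itga1 by 0.26. The granzymes did not separate the sets: Gzma had 18654, 17022 and 24969 CPM in Tcrg-V7 cells and 17049, 17113 and 22525 CPM in Tcrg-V1 cells, a log2 difference of 0.09 (SE 0.05), and 0 of 15 granule genes passed. Enterocyte markers were lower in 4 of 8, with Fabp1, a fatty acid binding gene, at 15.6, 8.38 and 35.2 CPM in Tcrg-V7 cells and 18.4, 7.76 and 499 CPM in Tcrg-V1 cells, so that saline 2 alone carried that difference. Without saline 2, 0 of 6 passed.

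**Figure D4:**
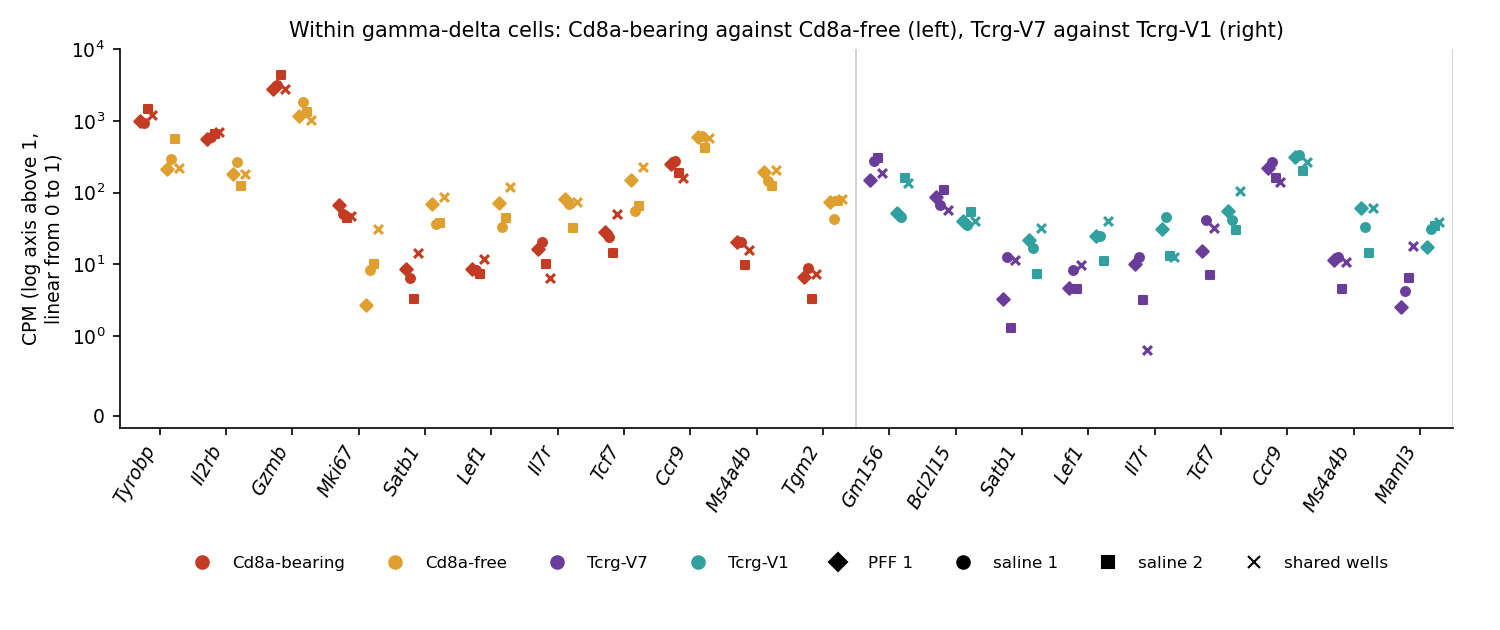
Named genes in Cd8a-bearing beside Cd8a-free gamma-delta cells (left) and in Tcrg-V7 beside Tcrg-V1 gamma-delta cells (right), as CPM on a log axis that is linear from 0 to 1; marker shapes are PFF 1, saline 1, saline 2 and the shared wells. Satb1, Lef1, Il7r and Tcf7 lie lower in Cd8a-bearing than in Cd8a-free cells in each library, and Mki67 lies higher there.

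On day 30 no gene passed the test between PFF 1 and the saline libraries within gamma-delta cells. Of 15491 genes 0 were called by edgeR (0%), 306 had an unadjusted p under 0.05, and DESeq2 called 8. Only saline 1 and saline 2 gave this test its spread, which leaves 1 residual degree of freedom, since PFF 1 has no replicate. On simulated counts the same fit recovered 0 of 100 genes changed by a log2 value of 1 and 30 of 100 changed by 2. The simulated spread was taken over PFF 1 and both saline libraries together, so recovery on the real counts may differ. Batch and treatment could be compared within batch 1 as values, between PFF 1 and saline 1, and not as a test. Of 6783 genes at 20 CPM or more, PFF 1 was above both saline libraries in 2184 and below both in 1801.

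Defining transcripts of the cells stood within or near the saline range. Gzma had 17268 CPM in PFF 1, against 17493 and 24877 CPM in saline 1 and saline 2 (log2 fold change -0.28, SE 0.31), and Gzmb 2747 CPM against 3062 and 4255 CPM (-0.40, SE 0.29). Ccl5 differed by -0.06 (SE 0.24), Fcer1g by -0.11 (SE 0.29), Itgae by 0.05 (SE 0.20), Ikzf2 by 0.11 (SE 0.25), Bcl2 by 0.12 (SE 0.20) and Cd7 by -0.12 (SE 0.24). None of these 8 genes had an unadjusted p under 0.05.

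Lists leaned in several directions without a call. Over all 6783 genes at 20 CPM or more, PFF 1 was above both saline libraries in 2184 and below both in 1801. No such share was taken over less abundant genes, which several lists hold. Of 27 nuclear genes of oxidative phosphorylation, PFF 1 was below both saline libraries in 21 and above both in 0, and the median log2 fold change was -0.20 beside -0.02 over all genes. Cox8a, a subunit of cytochrome c oxidase, had 502 CPM in PFF 1 against 673 and 719 CPM in saline 1 and saline 2, and Atp5e, of the ATP synthase, 501 against 629 and 654 CPM. Shared well 3, a saline well, had 508 CPM of Cox8a, as low as PFF 1, while the other shared wells had 691 and 651 CPM. Of 12 circulating and naive genes PFF 1 was above both saline libraries in 7 and below both in 0, but 5 of the 12 were under 2 CPM over all wells. Bach2, a repressor that keeps T cells quiescent, had 38.2 CPM in PFF 1 against 23.1 and 20.2 CPM (0.85, SE 0.19, edgeR adjusted p 1), and 101 CPM in shared well 3. Cell cycle genes were above both in 11 of 20, with Hist1h1b at 43.9 CPM in PFF 1 against 18.9 and 24.9 CPM (1.01, SE 0.24) and 39.1 to 57.9 CPM in the shared wells.

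Among the genes ranked by p with PFF 1 on 1 side of both saline libraries, Rai1, a chromatin regulator, had 95.8 CPM in PFF 1 against 65.2 and 63.4 CPM (0.60, SE 0.16). Nfatc2, a factor downstream of the T cell receptor, had 107 CPM against 75.6 and 75.5 CPM (0.53, SE 0.16), and Tanc1, a scaffold gene, 49.8 against 29.1 and 32.9 CPM (0.70, SE 0.19). In the shared wells Rai1 ranged from 54.3 to 91.6 CPM and Nfatc2 from 59.1 to 98.2 CPM, so the saline range reached close to PFF 1. On the other side Rbm3, a cold-induced RNA-binding protein, had 81.9 CPM in PFF 1 against 221 and 150 CPM (-1.15, SE 0.26), with 142 to 256 CPM in the shared wells. Rbm3 in PFF 1 was below all 5 saline wells. Against saline 1 alone, of the same batch, the log2 ratios were 0.55 for Rai1, 0.51 for Nfatc2, 0.78 for Tanc1 and -1.43 for Rbm3.

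Several of the top genes belong to other cells. Mcpt1, a mast cell protease, had 20.4 CPM in PFF 1 against 0.43 and 0.30 CPM (edgeR adjusted p 0.15), but 997 of its 1259 UMIs in PFF 1 stood in 1 cell. Reg1, an acinar and epithelial gene, had 4.98 CPM in PFF 1 against 26.9 and 27.3 CPM (adjusted p 0.56), with 200 of 253 UMIs of saline 1 in 1 cell. S100g, an enterocyte calcium-binding protein, had 8.07 against 41.8 and 32.1 CPM. Igkc, the immunoglobulin kappa constant gene, had 56.1 CPM in PFF 1 against 13.4 and 10.7 CPM, and 1382 CPM in shared well 3. Summed over lists, gamma-delta cells of PFF 1 had 110 CPM of 7 B cell markers against 67.4 and 46.3 CPM, 238 CPM of 14 macrophage and dendritic cell markers against 336 and 370 CPM, and 339 CPM of 12 enterocyte markers against 247 and 1524 CPM. Their part in the result was not tested.

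**Figure D5:**
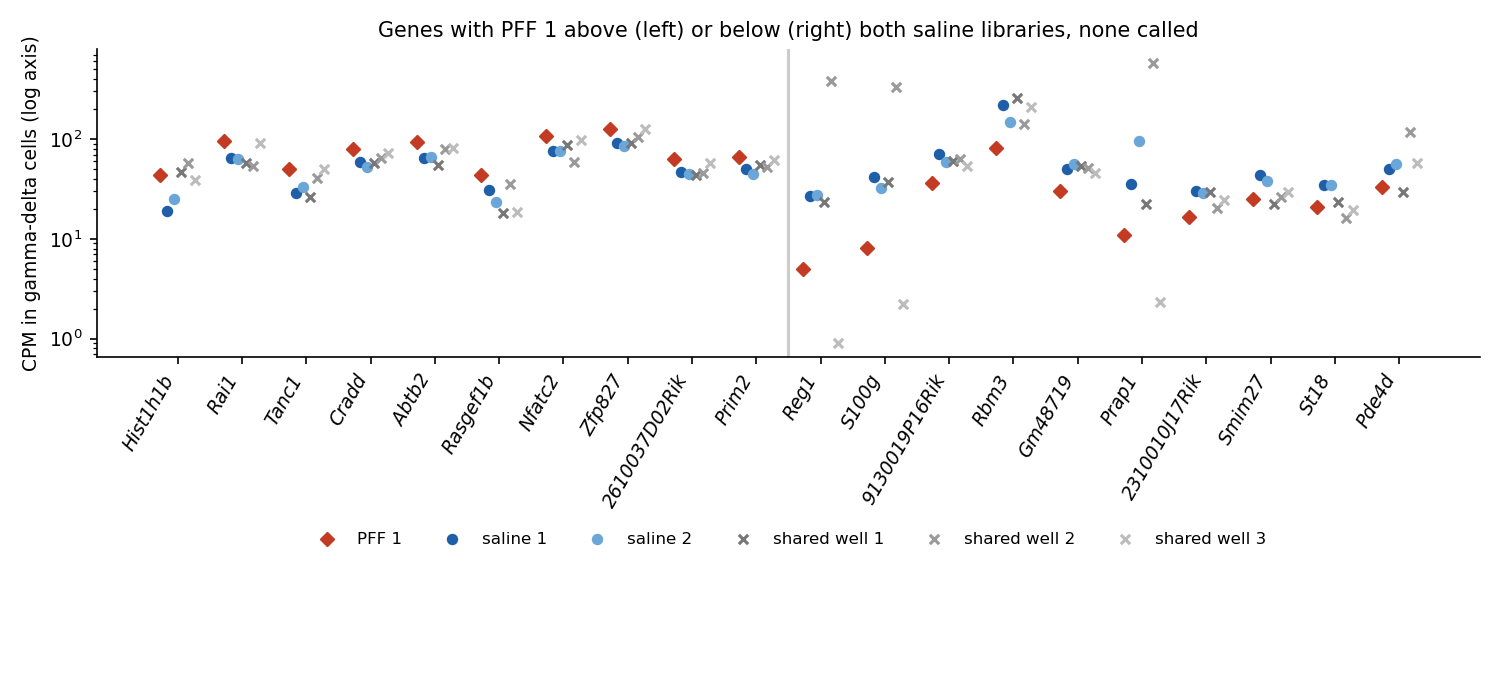
The 10 genes with PFF 1 above (left) and the 10 with PFF 1 below (right) both saline libraries that led the ranking by p, as CPM in gamma-delta cells on a log axis, in PFF 1, saline 1, saline 2 and the 3 shared wells; no gene passed the test. For Rai1 and Nfatc2 the shared wells reach 91.6 and 98.2 CPM, near the 95.8 and 107 CPM of PFF 1, while Reg1 and S100g are highest in shared well 2.

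Whether the PFF difference in gamma-delta cells was unlike that in CD8 alpha-beta cells was tested as an interaction. Of 13413 genes, 3 were higher and 15 lower in gamma-delta cells by this test, 0.134% of all (0.0224% higher and 0.112% lower; edgeR). With 1 PFF library, the spread again came from the saline pair. By DESeq2 the number called was 0 and 35 genes had an unadjusted p under 0.05; with each well taken as a library these were 0 and 77. The genes given here were chosen after their values were seen. Hist1h2ae, a histone gene, had the largest value (-4.43, SE 0.70, edgeR adjusted p 8.57e-07), and it rested on CD8 alpha-beta counts of 205 UMIs in PFF 1, 112 of them in 1 cell, against 1 and 2 UMIs in saline 1 and saline 2. In gamma-delta cells Hist1h2ae had 2808 UMIs in PFF 1 against 220 and 866 UMIs. The value turned to 0.59 with each well as a library and to 1.44 with the files as deposited. Gm12840 (-2.89) likewise had 210 UMIs in CD8 alpha-beta cells of PFF 1 against 8 and 1.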

How the data were processed

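Duodenal immune cells of 3 libraries, PFF 1, saline 1 and saline 2, were read as single-cell RNA. The authors deposited whole-number UMI counts per gene and cell, made with Cell Ranger 7.0.0 per the file headers and on mm10 per the submitters' processing notes. For the annotation release and the cell calling, the entry is: not given in the sources used here.

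A barcode was kept if it held 500 UMIs or more from 200 or more of the 32285 genes, with a mitochondrial part of up to 15%. Wells with identical counts in both saline files were found by their shared barcodes, counted once and left out of the tests. The automatic threshold of Scrublet marked under 0.5% of the cells in all wells but shared well 2, so the highest-scoring cells (0.8% per 1000 cells) were removed only as an alternative. Gates were set on raw UMIs. Counts were summed per library and gate for edgeR 4.0.16, run in R 4.3.3 (filterByExpr, TMM, quasi-likelihood test, library as a block for comparisons of gates, Benjamini-Hochberg threshold 0.05); DESeq2 1.42.0 was an alternative. Genes of the gates and of the receptor were left out of the tests. Python 3.11.15, scanpy 1.11.5, numpy 2.4.6 and scipy 1.17.1 were used. The fits were also run on simulated counts, with 100 genes changed by a log2 value of 1 and 100 by 2. Each simulation used 1 common dispersion for all genes, and the changed genes were drawn from the more abundant ones. For PFF that dispersion was estimated without a treatment term, so it includes any difference between PFF and saline. Recovery on the real counts may therefore differ. At 1 and 2 the PFF fit recovered 0 and 30 of these, and the interaction fit 12 and 75. The fits of gates and of sets within gamma-delta cells recovered 58 to 99 at 1 and 98 to 100 at 2. Between 1 and 11 unchanged genes were called per fit. Fold changes of genes at 0 in a group depend on the prior count. Each SE is an approximation, the absolute log2 fold change divided by the square root of the F statistic of edgeR. It is not a standard error from the fit and need not match the p-value.

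The members and the 29 lists with 473 genes were chosen with earlier results of these data known. Genes given were, in each list, the called members with the largest fold change, up to 4, or else the most abundant, up to 3. Outside the lists they were the genes of 20 CPM or more with the largest change, and for PFF those ranked by p that lay above both saline libraries or below both. Not all of them are printed. This choice favours genes without overlap between groups, and the share of all tested genes without overlap is not given. Positions and sequences come from the GENCODE annotation of GRCm38. Alternatives were other scaling, no filter, other gate and cell thresholds, thinning to 2000 UMIs, doublet removal, the files as deposited, other uses of the shared wells and leaving out each library.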

Additional observations from a re-analysis of the deposited data

Results flagged for a closer look

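The interaction test of edgeR, which asks whether the difference between PFF 1 and the saline libraries is itself unlike in gamma-delta cells and in CD8 alpha-beta cells, called 18 genes, 3 higher and 15 lower. PFF 1 is 1 library, so the saline pair alone gave the spread of this test. DESeq2, each well as a library and thinned cells gave 0, the shared wells as a library gave 1, and without a library the interaction could not be fitted. CD8 alpha-beta cells were few, at 209, 66 and 46 in PFF 1, saline 1 and saline 2.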

How the results depend on the processing

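No paired analysis was possible because the PFF and saline groups share replicate number 1 only. Counts of genes called that moved by over 1.5 times follow, and the cause was not tested unless fewer cells or genes entered. PFF against saline, with 0 called, gave 1 with RLE scaling, 217 without a filter on low counts (27 higher and 190 lower), 8 with DESeq2, 17 with the files as deposited, 1 without doublets and 18 thinned. Gamma-delta over CD8 alpha-beta cells, with 290, gave 495 without a filter, 191 with DESeq2, 773 with each well as a library, 3247 as deposited, 193 in cells free of Trac, 144 thinned, and 139 to 831 without 1 library. Against CD8 alpha-alpha cells, with 290, the counts were 631 without a filter, 464 as deposited and 29 to 725 without 1 library. Cd8a-bearing over Cd8a-free cells, with 228, gave 717 without a filter, 356 with DESeq2, 609 with shared wells added as a saline library, 618 with each well as a library, 1380 as deposited, 417 at 10% mitochondrial UMIs, 78 free of Trac and 24 to 787 without 1 library. The interaction, with 18, gave 0 with DESeq2, each well as a library or thinning (35, 77 and 127 at an unadjusted p under 0.05), 1 with the shared wells as a library and 2273 as deposited. Tcrg-V7 over Tcrg-V1 cells, with 118, gave 364 without a filter, 33 with DESeq2, 186 as deposited, 4 free of Trac, 0 thinned and 73 to 126 without 1 library.

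The gamma-delta share, PFF 1 minus the saline mean, was -0.81 points and 8.13 points with the files as deposited. It ran from -6.77 to 5.16 points without 1 saline library. Of the values of genes given in the text, 1897 kept their side of the threshold over the alternatives, 189 lost the call and 20 gained one. A change of direction was counted only for genes called in the main fit or in the alternative. PFF values against 1 saline library had no test and were counted as kept, whatever their direction. By this count 16 values turned. These were Igkc for PFF as deposited (-3.78), and Fcgbp and Tff3 in thinned gamma-delta over CD8 alpha-beta cells (-0.20 and -0.0069). Hist1h1b, Mki67 and Stmn1 turned in thinned Cd8a-bearing cells (-0.68, -0.028 and -0.24). In Cd8a-bearing cells Tff3, Fcgbp and Muc2 turned with 1 Trdc UMI (-0.23, -0.79 and -1.56) and Fcgbp free of Trac (-0.087). Hist1h2ae turned in the interaction (0.59 with each well as a library, 1.44 as deposited), and Themis in thinned Tcrg-V7 cells (0.14). Mki67 turned in Tcrg-V7 cells (0.027 with shared wells as a library, 0.032 with each well as a library, 0.26 as deposited). Files as deposited hold the shared wells in both saline libraries. PFF against saline without 1 saline library left no residual degrees of freedom and gave no test.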
